A study of Mus musculus with 21 samples.

Results

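The hard keratins of hair and tail scale were described in bulk RNA sequencing of tail keratinocytes, the epithelial cells of mouse tail epidermis, from 3 models of basal cell carcinoma (BCC) and their tumour-free controls (Con). The genes were chosen by name: Krt31, Krt33a, Krt33b, Krt34, Krt35 and Krt36 (type I), and Krt81, Krt84, Krt85 and Krt86 (type II). Of these 10 genes, 9 have a row among the 23713 genes of the count table, and Krt85 was not analysed here. All 9 passed the filter on low counts in each model. The models are SmoM2, named for an activated form of the Hedgehog receptor protein Smoothened and sampled at day 29 after tumour induction, Gnas-eKO, named for the loss of Gnas, which encodes the stimulatory G protein alpha subunit, and sampled at day 42, and PKI, named for an inhibitor of protein kinase A and sampled at day 57. Each model had 3 Con and 4 BCC libraries, 21 in all, and the column headings name an animal for each. The labels give neither the promoter or Cre line, the inducing agent, the age or sex of the mice nor the alleles that the Con mice carry. Each model carries its own batch label (A, B or C), which is not explained further, so model, day and batch cannot be told apart, and BCC was compared with Con within a model.

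Keratins build intermediate filaments from pairs of a type I and a type II chain. The hard, or hair, keratins have cysteine-rich end domains that are cross-linked to one another and to keratin-associated proteins, which gives hair, nail and the papillae of the tongue their stiffness. Krt35 and Krt85 are the first to appear in the hair matrix and early cortex. Krt31, Krt33a, Krt33b, Krt34, Krt81 and Krt86 follow in the cortex of the hair shaft. Krt36 and Krt84 are known from the tongue papillae and the nail, and mouse tail epidermis has scales, patches in which hard keratins are made outside the hair follicle.

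The type I genes lie together on chromosome 11 and the type II genes on chromosome 15 of GRCm38, and all but Krt86 are on the minus strand. Krt36 spans chr11:100102007-100105626 with 7 exons, Krt35 chr11:100092193-100096241 with 7 exons and Krt84 chr15:101525026-101532820 with 9 exons, and no annotated gene overlaps any member. For 5 members the RefSeq promoter table for GRCm38.p6 gave the bases before the transcription start, and for Krt33a, Krt35, Krt81 and Krt86 none are printed. The 250 bases before the start of each are printed because Krt36 and Krt84, on different chromosomes, rose and fell together across libraries (Pearson r = 0.999 of log2 CPM), while Krt31, Krt33b and Krt34 followed another course. Capitals mark matches, on either strand, to TATAAA, the TATA box, to CTTTGA, the core of Lef/Tcf sites, to CTCNTAAA, a posterior Hox type sequence, and to TTTTATGNG, an A/T-rich run that was chosen after the sequences had been read. The reverse complement of CTCNTAAA can lie within TTTTATGNG, and it does in Krt33b and Krt84.
Krt36 (chr11:100105627-100105876, minus strand): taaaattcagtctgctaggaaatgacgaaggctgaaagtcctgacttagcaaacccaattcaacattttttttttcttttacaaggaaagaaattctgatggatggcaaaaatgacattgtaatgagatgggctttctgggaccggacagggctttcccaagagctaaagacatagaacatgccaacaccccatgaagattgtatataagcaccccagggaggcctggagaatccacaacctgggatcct
Krt84 (chr15:101532821-101533070, minus strand): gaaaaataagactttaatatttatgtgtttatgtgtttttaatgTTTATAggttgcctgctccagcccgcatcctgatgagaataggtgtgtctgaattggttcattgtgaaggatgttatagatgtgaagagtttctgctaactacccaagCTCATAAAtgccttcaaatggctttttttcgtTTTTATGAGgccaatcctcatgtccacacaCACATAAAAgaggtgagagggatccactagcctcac
Krt31 (chr11:100050552-100050801, minus strand): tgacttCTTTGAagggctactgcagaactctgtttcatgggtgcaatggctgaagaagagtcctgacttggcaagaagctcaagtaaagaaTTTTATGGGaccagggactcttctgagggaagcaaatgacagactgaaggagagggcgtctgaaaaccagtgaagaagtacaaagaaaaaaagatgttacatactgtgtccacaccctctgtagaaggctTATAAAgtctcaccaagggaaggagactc
Krt33b (chr11:100029869-100030118, minus strand): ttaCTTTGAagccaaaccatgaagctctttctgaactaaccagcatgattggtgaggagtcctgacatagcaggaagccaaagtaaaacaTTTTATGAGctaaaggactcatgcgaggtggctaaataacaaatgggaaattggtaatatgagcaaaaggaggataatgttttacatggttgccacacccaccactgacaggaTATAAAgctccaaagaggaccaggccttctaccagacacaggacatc
Krt34 (chr11:100041555-100041804, minus strand): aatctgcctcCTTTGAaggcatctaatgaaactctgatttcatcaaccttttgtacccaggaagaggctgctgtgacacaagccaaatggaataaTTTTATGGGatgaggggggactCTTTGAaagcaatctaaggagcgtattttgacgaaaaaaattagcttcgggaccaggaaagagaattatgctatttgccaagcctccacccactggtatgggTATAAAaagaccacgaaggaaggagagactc

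Motifs were counted in the table's window of 250 bases before to 50 bases after the start. The Krt36 window held none of the 4 motifs as exact letters. Its printed bases do hold tatataa shortly before the start, which is not an exact match and was not counted. The absence of TATAAA there therefore does not show that Krt36 lacks a TATA box. The Krt84 window held TATAAA once, on the other strand at position -206 from the start, CTCNTAAA at 2 places and TTTTATGNG at 2 places, and no CTTTGA. Each of Krt31, Krt33b and Krt34 held TATAAA in the printed direction, at -29, -47 and -31, and TTTTATGNG, at -159, -160 and -155. These same 3 genes held CTTTGA, with matches in Krt31 at -244 and in Krt33b at -247. TATAAA was found in 4 of the 5 member windows and in 13.6% of the 32851 promoter windows of the table. CTTTGA was found in 3 of 5 and in 16% of all windows, CTCNTAAA in 2 of 5 and in 3.24%, and TTTTATGNG in 4 of 5 and in 0.944%. TTTTATGNG was chosen from these same sequences, so its share among the members was fixed in advance and is no test of enrichment. Krt31, Krt33b and Krt34 are related genes of the same cluster, with coding sequences 87% to 90.9% identical. Their matches are therefore not independent of one another. A match describes letters in the window and not a bound site.

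Library totals ranged from 16645858 to 22251132 counts, and 3 counts came to at most 0.19 CPM, the count per 1000000 counts of a library after TMM normalisation, which is not divided by gene length. The genes behind the labels were checked first. Gnas was at 172 to 178 CPM in Gnas-eKO Con and 50.6 to 114 CPM in Gnas-eKO BCC, Smo at 93.8 to 110.5 CPM in SmoM2 Con and 283 to 313 CPM in SmoM2 BCC, and the Hedgehog target Ptch1 was at 30.0 to 42.9 CPM over all Con groups and at 209 to 1059 CPM over all BCC groups. Against the label of keratinocytes, 6 basal markers (Krt5, Krt14, Krt15, Itga6, Col17a1, Trp63) summed to at least 16142.5 CPM in every library, while 2 muscle markers in the table summed to at most 0.774 CPM and 4 endothelial markers to at most 4.44 CPM.

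In control tails, Krt36 and Krt84 were far above the other members. Divided by transcript length, the median over the 9 Con libraries was 6476 CPM per kb for Krt36 and 6076 CPM per kb for Krt84. The next was Krt35 at 13.0 CPM per kb, followed by Krt31 at 10.4, Krt81 at 9.25, Krt33b at 7.74, Krt33a at 6.72, Krt86 at 2.79 and Krt34 at 2.76 CPM per kb. Krt36 (3088 to 11025 CPM per kb) and Krt84 (2743 to 11234 CPM per kb) overlapped each other in range and overlapped no other member. Among the 7 lower genes every neighbour in the order overlapped the next, and their spread was wide. The highest Con library was 9.32 times the lowest for Krt35 and 124 times for Krt33a. It was at least 65.6 times the lowest for Krt34, whose lowest library, with 1.13 estimated counts, was set to the floor of 3 counts. For Krt36 it was 3.57 times and for Krt84 4.1 times the lowest. Together, Krt36 and Krt84 held 2.98% ± 1.27 of all counts in SmoM2 Con, 2.74% ± 1.00 in Gnas-eKO Con and 2.05% ± 0.820 in PKI Con (SD, n = 3 each).

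Krt36, the type I keratin of tail scale and tongue, was lower in BCC than in Con in SmoM2. Its level was 8309, 10821 and 18422 CPM in the 3 Con libraries and 2419, 1689.5, 999.96 and 1579 CPM in the 4 BCC libraries, so that every BCC library lay below every Con library. Krt84, the type II keratin, was at 12302.5, 15615 and 28873 CPM in SmoM2 Con and at 3399.65, 2484, 1368 and 2204 CPM in SmoM2 BCC. It too was lower in each BCC library than in any Con library, and the third Con library was the highest for both genes. The log2 fold change was -2.89 (SE 0.391, adjusted p = 0.00267, edgeR quasi-likelihood test) for Krt36 and -2.99 (SE 0.42, adjusted p = 0.00331) for Krt84. In bulk RNA, fewer scale cells and less keratin RNA per cell cannot be told apart. Column headings name the SmoM2 BCC animals with another prefix than the SmoM2 Con animals, so the origin of the mice and the tumour cannot be told apart here. In a joint fit of all 21 libraries, whose spread includes that of the Gnas-eKO tumours, neither gene passed (adjusted p = 0.143 for Krt36 and 0.155 for Krt84).

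In PKI the pair was lower as well. Krt36 was at 11831, 9460.4 and 5159.9 CPM in PKI Con and at 1199.7, 2386, 2171 and 535 CPM in PKI BCC, with no overlap. Krt84 was at 16817, 12999.8 and 7049 CPM in PKI Con and at 1666, 3229, 3083 and 764 CPM in PKI BCC, again with no overlap, and for both genes the fourth BCC library was the lowest. The log2 fold change was -2.47 (SE 0.567, adjusted p = 0.0188) for Krt36 and -2.48 (SE 0.564, adjusted p = 0.0184) for Krt84. These calls were lost without the first Con library (adjusted p = 0.0527 for Krt36 and 0.0516 for Krt84), without the first BCC library (0.0661 and 0.0638) and in the joint fit (0.179 and 0.206), with the direction kept each time.

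For Krt36 and Krt84 the Gnas-eKO tumours spanned a wider range than the tumours of either other model. Krt36 was at 12147, 15428 and 7071 CPM in Gnas-eKO Con and at 329, 8426, 1.64 and 176 CPM in Gnas-eKO BCC. Krt84 was at 17569, 22807 and 10232 CPM in Con and at 324, 13155, 1.43 and 182 CPM in BCC. The second BCC library was within the Con range for both genes and the third rested on 31 counts of Krt36 and 27 counts of Krt84, which is above the 3 counts taken as the floor. Neither gene was called, with log2 fold changes of -2.36 (SE 1.83, adjusted p = 0.53) for Krt36 and -2.30 (SE 1.94, adjusted p = 0.57) for Krt84. Without the second BCC library both were called lower, at -6.07 (adjusted p = 0.0366) and -6.61 (adjusted p = 0.0311), where 4.43% of genes tested were called lower.

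Other genes also placed the second Gnas-eKO BCC library nearer to Con than the other 3. Krt14, a basal keratin that was chosen after its values were seen, as was Dcn, was at 13638 to 15232 CPM in Gnas-eKO Con, at 11034 CPM in that library, and at 3829.85, 4419 and 5370.3 CPM in the other 3. The 8 hair shaft genes (Gprc5d, Dsg4, S100a3, Padi3, Tgm3, Lpar6, Liph, Selenbp1) summed to 702 CPM there, against 198, 269 and 208 CPM in the others and 831 to 1117 CPM in Con. Most of each BCC sum was Tgm3 (144 to 290 CPM over the 4 BCC libraries) and Selenbp1 (13.4 to 335 CPM), so it rests mainly on those genes. The second BCC library was not nearer in every measure. Gnas itself was at 114, 89.4, 50.6 and 65.5 CPM in the 4 BCC libraries in order, lowest in the third, and Dcn, a fibroblast marker, was highest in the second at 569 CPM. The part of these differences in the keratin values was not tested.

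**Figure D1:**
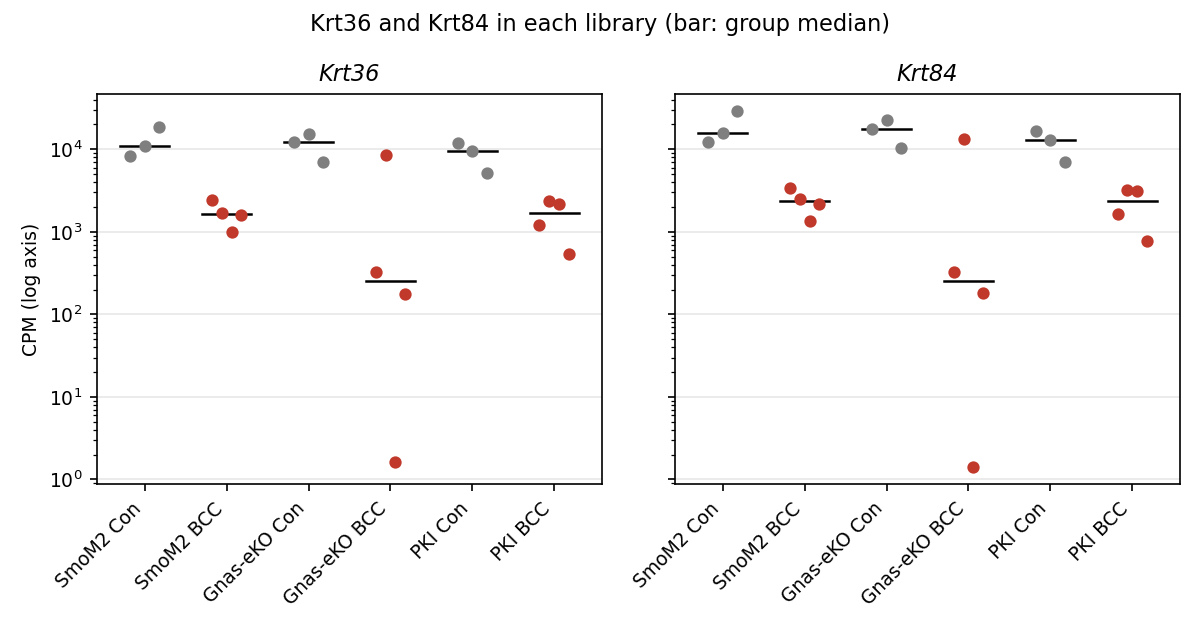
Krt36 (left) and Krt84 (right) in CPM on a log axis, 1 point per library in grey for Con (n = 3 per model) and red for BCC (n = 4 per model), with a bar at the group median. All SmoM2 and PKI BCC points lie below all Con points of their model, while Gnas-eKO BCC spans 1.64 to 8426 CPM for Krt36 and 1.43 to 13155 CPM for Krt84.

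Krt36 and Krt84 moved together, with a lower proportion of Krt84 in 3 of the 4 Gnas-eKO tumours. The ratio of Krt84 to Krt36, each per transcript length, ranged from 0.566 to 1.02 over the 21 libraries with a median of 0.924, while the level of Krt36 ranged from 1.64 to 18422 CPM. In CPM not divided by length, the ratio was 0.984, 1.56, 0.871 and 1.04 in the 4 Gnas-eKO BCC libraries in order, and 1.46 ± 0.0182 in Gnas-eKO Con (SD, n = 3). The first and the last of these rested on 7181 and 3647 counts of Krt36 and on 7064 and 3778 counts of Krt84, and the third on 31 and 27 counts. In every other library of the series the ratio lay between 1.35 and 1.57. The difference in ratio was not tested. Across the 21 libraries the Pearson correlation of log2 CPM between both genes was 0.999, and also 0.999 after the mean of each group was subtracted. Together they held 0.427% ± 0.155 of all counts in SmoM2 BCC and 0.374% ± 0.202 in PKI BCC (SD, n = 4 each), and from 0.000304% to 2.17% in Gnas-eKO BCC.

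The 7 lower members, the keratins of the hair cortex and matrix, were also lower in SmoM2 BCC in most libraries, but only Krt34 was called. Krt34 was at 4.55, 8.56 and 4.43 CPM in SmoM2 Con and at 0.363, 2.02, 2.50 and 0.906 CPM in SmoM2 BCC, with no overlap (log2 fold change -1.99, SE 0.549, adjusted p = 0.0282). That call was lost without the second Con library (adjusted p = 0.0977), without the fourth BCC library (0.0746), with no filter on low counts (0.0514) and in the joint fit (0.159). Krt86 was at 5.47, 14.7 and 7.51 CPM in Con and at 0.408, 2.12, 4.31 and 1.91 CPM in BCC (log2 fold change -2.05, SE 0.652, adjusted p = 0.0537). Krt31 (16.4 to 30.9 CPM in Con, 1.41 to 13.4 in BCC), Krt33a (12.2 to 29.9 and 0.907 to 10.8), Krt33b (12.5 to 20.9 and 0.816 to 8.21) and Krt81 (17.1 to 31.4 and 0.816 to 11.0) had no overlap either, with log2 fold changes of -1.79 to -1.98 and adjusted p from 0.0675 to 0.133. Krt35, at 12.9, 30.6 and 40.8 CPM in Con and 3.13, 7.75, 22.8 and 7.00 CPM in BCC, overlapped between the groups (log2 fold change -1.45, SE 0.733, adjusted p = 0.204). The first BCC library was the lowest in SmoM2 for each of these 7 genes.

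Of the 9 members, 3 were thus called lower in SmoM2 and 0 higher, where 13.5% of the 16370 genes tested were called lower and 16.2% higher. In 8 of 9 every BCC library lay below every Con library, against 19.2% of genes tested with that pattern and 19.7% with the reverse. The median log2 fold change of the members was -1.98 and that of all genes tested was 0.00. The median SE of the members was 0.659 and that of all genes 0.136, so that changes of this size were measured less precisely for these keratins than for most genes. The count of called members was 6 without the first BCC library and 7 without the third, all lower, where 10.5% and 11.7% of genes tested were called lower.

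In Gnas-eKO, 0 of 9 members were called by edgeR, where 0.165% of the 16409 genes tested were called lower and 1.46% higher. At an unadjusted p under 0.05 there were 5, all lower (Krt31, Krt33a, Krt33b, Krt81 and Krt86), where 7.34% of genes tested were lower at that p. DESeq2 and limma called 0 members as well, where they called 1540 of 23571 and 249 of 16409 genes tested. All 9 overlapped between BCC and Con, where 10.1% of genes tested had each BCC library below each Con library and 9.73% the reverse. The first Con library stood high for all 7 lower members. For Krt31 it was at 66.7 CPM, against 10.2 and 15.0 CPM in the other Con libraries and 1.74, 11.9, 9.74 and 2.22 CPM in BCC. For Krt35 the Con values were 47.8, 17.5 and 28.3 CPM and the BCC values 16.0, 22.5, 31.9 and 5.17 CPM (log2 fold change -0.70, SE 0.539, adjusted p = 0.522). The members' median log2 fold change was -2.16, against 0.02 over all genes tested. Without the first Con library it was -0.84, and the 7 lower members had log2 fold changes from -1.10 for Krt33b to -0.25 for Krt34, such as -0.97 for Krt31 and -0.56 for Krt33a, with adjusted p from 0.59 to 0.934. In that fit 0% of the 16841 genes tested were called in either direction.

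The third Gnas-eKO BCC library, which had almost no Krt36 and Krt84, had Krt31 at 9.74 CPM, Krt33a at 8.04 CPM, Krt81 at 5.56 CPM and Krt35 at 31.9 CPM. The lowest of the 4 tumours for Krt31, Krt33a, Krt33b, Krt34 and Krt81 was the first instead, with Krt33b at 0.596 CPM and Krt34 at 0.183 CPM. The lowest scale pair and the lowest values of these cortex keratins were thus found in different tumours of this model. Krt86 (1.16 CPM) and Krt35 (5.17 CPM) were lowest in the fourth tumour. The pair was also low in the first, with Krt36 at 329 CPM and Krt84 at 324 CPM.

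PKI differed from the other models in the hair matrix keratin. Krt35 was at 22.3, 5.13 and 5.60 CPM in PKI Con and at 111, 231, 144 and 53.5 CPM in PKI BCC. All 4 BCC libraries lay above all 3 Con libraries and above every library of the other models. The log2 fold change was 3.61 (SE 0.792, adjusted p = 0.0168), with 95% confidence limits of 1.67 and 5.56, and the call held when any one of the 7 libraries was left out. Krt86, a type II cortex keratin, was at 6.17, 0.380 and 1.44 CPM in PKI Con and at 12.7, 18.6, 13.5 and 7.68 CPM in PKI BCC, without overlap, at a log2 fold change of 2.28 (SE 0.77, adjusted p = 0.0616) that did not pass. Krt86 was called higher by DESeq2 (adjusted p = 0.0317), by limma (0.0205), in the non-robust edgeR fit (0.0291) and in the joint fit (0.0465), and was not called with no filter on low counts (0.119).

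The other 5 cortex members were not called in PKI. Krt31 was at 19.3, 1.96 and 3.85 CPM in Con and at 9.67, 23.9, 19.2 and 8.99 CPM in BCC (log2 fold change 0.88, SE 0.81, adjusted p = 0.446). Krt33a (log2 fold change 1.82, adjusted p = 0.177), Krt33b (0.88, 0.445), Krt81 (0.82, 0.491) and Krt34 (0.35, 0.828) likewise overlapped between the groups. In each of them the first PKI Con library was above both others, as for Krt34 with 5.51 CPM against 0.316 and 0.0602 CPM, the last from 1.13 estimated counts. Without that library, 7 of the 9 members were called, all 7 higher in BCC, with log2 fold changes from 2.41 for Krt31 to 4.66 for Krt35, where 15.5% of genes tested were called higher. The same library was at 387 CPM in the sum of the inner root sheath markers, against 144 CPM in each of the other PKI Con libraries, and at 146 CPM against 22.4 and 24.2 CPM in the sum of 6 other hair keratins. The part of its hair content in the result was not tested.

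In PKI, then, 1 member was called higher and 2 lower, where 18.7% of the 16397 genes tested were called higher and 15.8% lower. Without overlap, 2 were higher and 2 lower, against 22.4% and 20.8% of genes tested. The members' median log2 fold change was 0.88, and that of all genes 0.00. The members' median was 2.80 without the first Con library, 0.41 without the second and 0.47 without the third. Without the first BCC library, 1 member was called, Krt35, where 15.2% of genes tested were called higher and 14.3% lower.

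**Figure D2:**
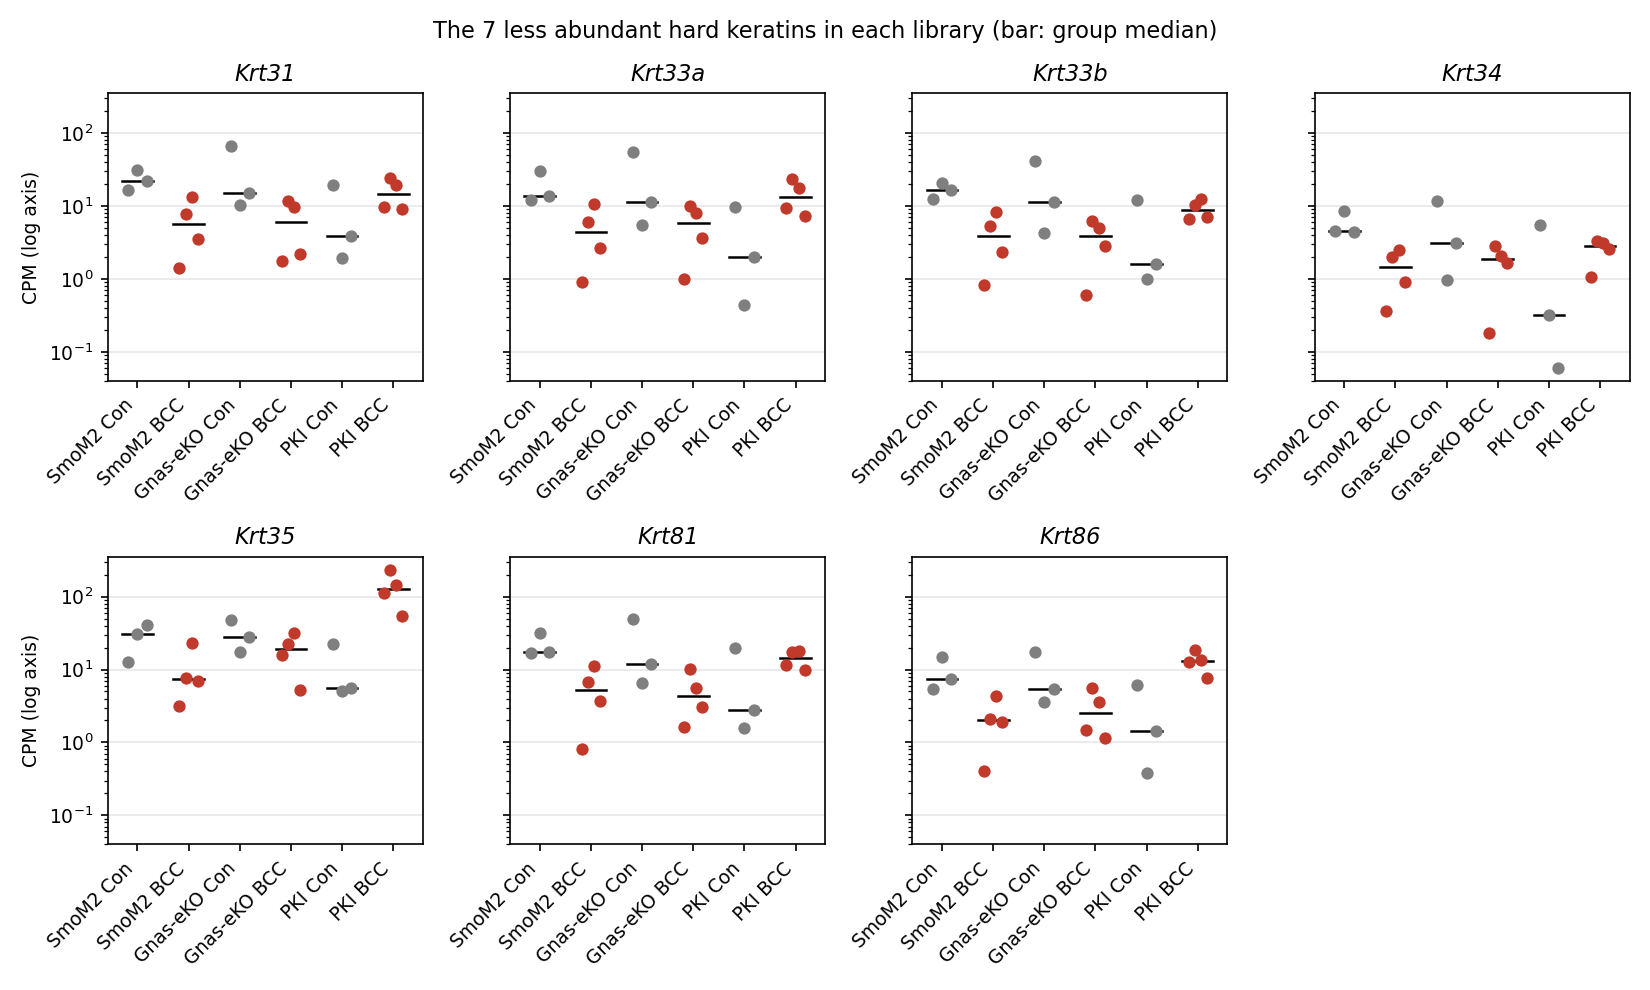
The 7 less abundant hard keratins in CPM on a shared log axis, 1 point per library in grey for Con (n = 3 per model) and red for BCC (n = 4 per model), with a bar at the group median. The PKI BCC libraries stand highest for Krt35, at 53.5 to 231 CPM, and the first PKI Con library lies above the other 2 in each panel.

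The change in BCC was then compared between models. The difference of log2 fold changes, PKI minus SmoM2, was 5.06 for Krt35 (SE 1.12, adjusted p = 0.00845) and 4.33 for Krt86 (SE 1.09, adjusted p = 0.0142), and these 2 of 9 members were called, where 24.9% of the 17261 genes tested were called. Both calls held when any one of the 14 libraries was left out. The other 5 hair members had differences of 2.32 to 3.67, with adjusted p from 0.0569 to 0.218. For the scale pair the difference was small in size but loosely bounded: 0.42 for Krt36 (95% confidence limits -1.17 and 2.00) and 0.51 for Krt84 (-1.11 and 2.12). The count of called members was 7 without the first PKI Con library, where 20% of genes tested were called.

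PKI minus Gnas-eKO gave 4.33 for Krt35 (SE 0.994, adjusted p = 0.0219) and 3.85 for Krt86 (SE 1.11, adjusted p = 0.0484), again 2 of 9 called, where 9.06% of the 17254 genes tested were called. The call of Krt86 held in 2 of the 14 fits that left out a library and that of Krt35 in 11. It was lost for Krt35 without the first Gnas-eKO Con library (adjusted p = 0.0566), the second PKI Con library (0.0572) or the third PKI Con library (0.0641). For Krt36 the limits ran from -4.83 to 4.61, so that no difference of the scale pair could be resolved against the spread of the Gnas-eKO tumours. Between Gnas-eKO and SmoM2, 0 of 9 members differed in the edgeR test (all adjusted p at least 0.858, and 0 at an unadjusted p under 0.05), where 0.175% of the 17151 genes tested were called.

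**Figure D3:**
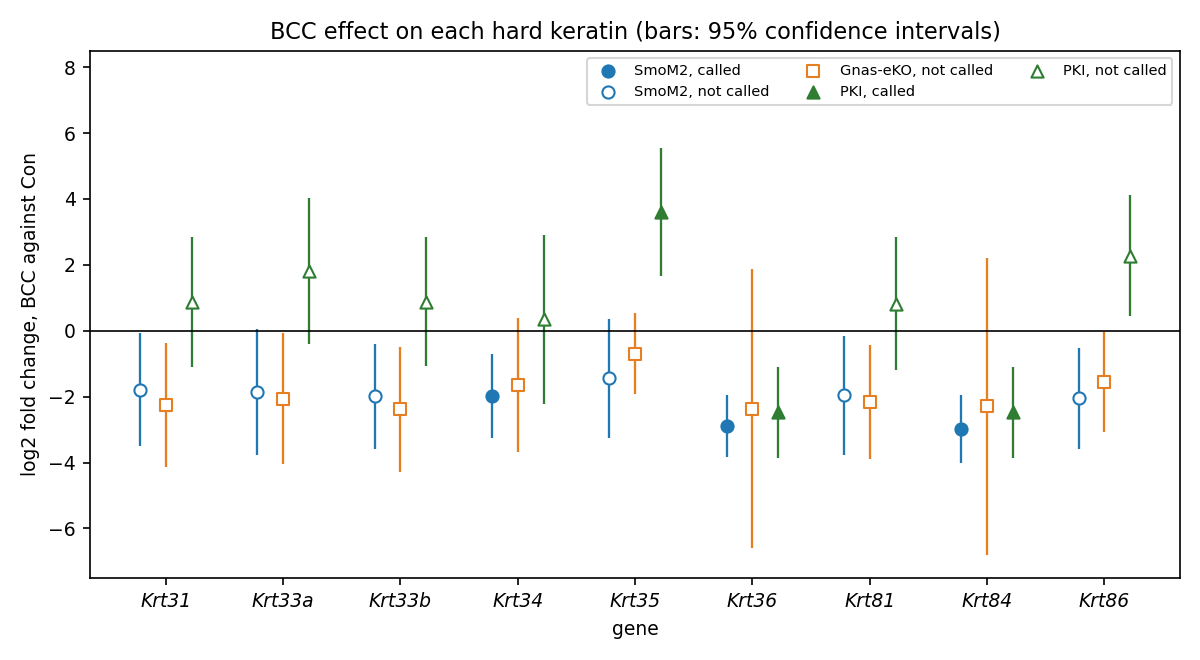
Log2 fold change of BCC against Con for each hard keratin in SmoM2 (circles), Gnas-eKO (squares) and PKI (triangles), filled where the adjusted p was under 0.05, with bars for 95% confidence intervals. Krt36 and Krt84 lie below 0 in each model with wide bars in Gnas-eKO, and Krt35 lies at 3.61 in PKI and at -1.45 and -0.70 in SmoM2 and Gnas-eKO.

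The members formed 2 sets across libraries, a division made after their values were seen. Pearson correlations of log2 CPM among Krt31, Krt33a, Krt33b, Krt34, Krt81 and Krt86 ranged from 0.768 to 0.979 over 15 pairs and the 21 libraries. Between these 6 genes and Krt36 or Krt84 they ranged from 0.167 to 0.33 over 12 pairs. With the mean of each group subtracted the ranges were 0.754 to 0.969 and -0.0186 to 0.0834. Krt35 stood with the first set, at 0.543 with Krt34 to 0.89 with Krt86, and had -0.0199 with Krt36. Among the 9 Con libraries, all 7 hair members were highest in the first Gnas-eKO library, while Krt36 and Krt84 were highest in the third SmoM2 library.

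**Figure D4:**
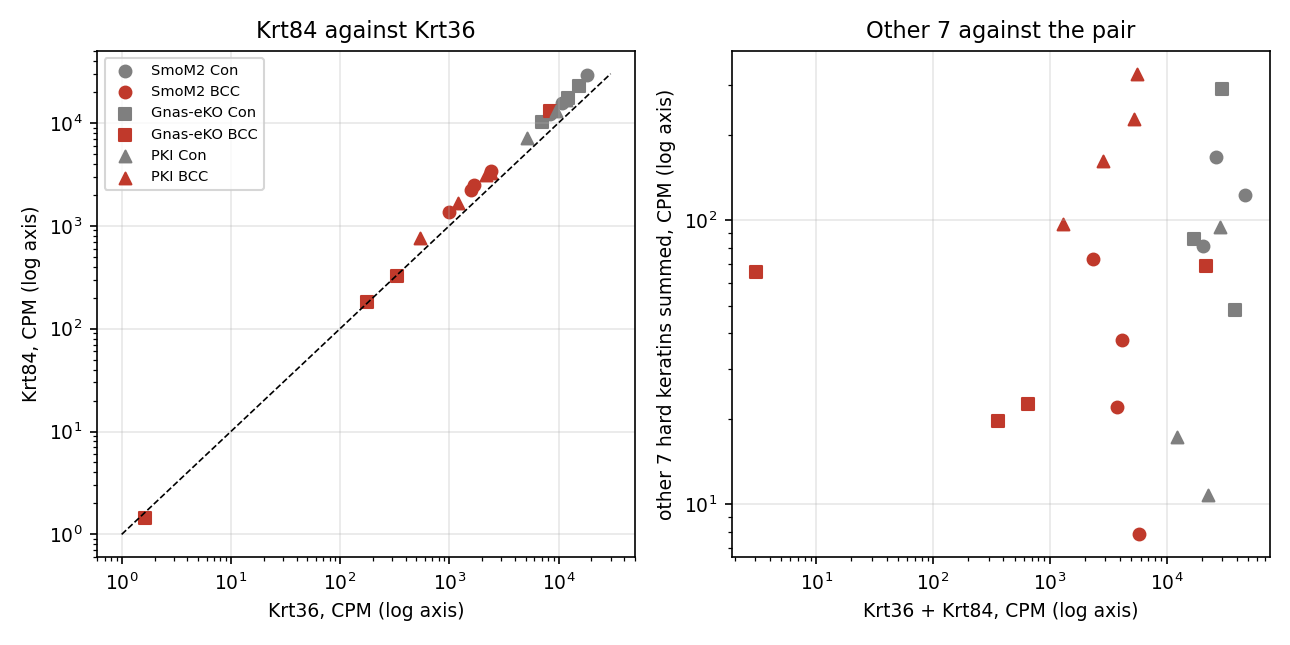
Left, Krt84 against Krt36, and right, the sum of the other 7 members against the sum of Krt36 and Krt84, all in CPM on log axes, 1 point per library, with grey for Con, red for BCC and the model by shape. The left points lie above the dashed line of equal values except in 2 Gnas-eKO BCC libraries, and on the right the PKI BCC triangles combine a low pair with sums of 96.9 to 328 CPM for the other 7, while the PKI Con triangles reach 94.8 CPM at most.

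The cortex keratins share long stretches of sequence, and a read that fits several genes can be divided among them when it is counted. The part of this in their correlation was not tested. Coding sequences of Krt33a and Krt33b were 93.3% identical, those of Krt31 and Krt33b 90.9%, and those of Krt81 and Krt86 92.9%. Of the 50-base stretches in the Krt81 coding sequence, 48.9% were also in Krt86. The deposited counts of Krt33a, Krt34, Krt81 and Krt86 were not whole numbers in any of 21 libraries, and those of Krt31 in 20 and of Krt33b in 16. Krt36 was whole in all 21, Krt84 was not whole in 2 and Krt35 in 3, and Krt36 and Krt84 were 46.1% identical with no 50-base stretch in common. The levels of Krt31, Krt33a, Krt33b, Krt34, Krt81 and Krt86 as single genes are therefore uncertain, and those of Krt35, Krt36 and Krt84 less so. Krt35 and Krt36, which moved in opposite directions in PKI, had no such stretch in common either.

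Among 14666 genes whose log2 CPM averaged 0 or more, those most like the mean of the 9 members were Krt83 (Pearson r = 0.921 over the 21 libraries), Krt87 (0.912), Krtap11-1 (0.91), Krtap13-1 (0.886) and Gprc5d (0.871). Krt83 and Krt87 are type II hair keratins, and Krtap11-1 and Krtap13-1 encode keratin-associated proteins. The same 5 genes led after the group means were subtracted, from 0.913 for Krt83 to 0.848 for Gprc5d. For Krt36 and Krt84 alone, a measure added after the values were seen, other genes led: Mfn2 (0.947), Pde8a, Prkar2a, Chmp1a (0.94 each) and Zmiz2 (0.936). The libraries of a group share their treatment, batch and day, so these values describe likeness only.

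Other hair keratins changed in PKI in both directions. Of 6 on the list, 5 were tested in PKI: Krt82, a type II keratin of the hair cuticle, and Krt32, its type I counterpart, were higher, and Krt39 was lower. Krt82 was at 0 to 1.16 CPM in PKI Con and at 2.80 to 13.1 CPM in PKI BCC (log2 fold change 3.71, SE 0.855, adjusted p = 0.0138). Krt32 was at 5.06 to 8.40 CPM and at 9.65 to 22.0 CPM (1.26, SE 0.285, adjusted p = 0.00979). Krt39 was at 1.14 to 6.83 CPM and at 0.0548 to 0.206 CPM, near the floor (-4.29, SE 0.78, adjusted p = 0.00371). Krt83 (log2 fold change 1.00, adjusted p = 0.357) and Krt87 (-0.46, 0.708) did not pass, and Krt40, at 0.409 CPM or less in PKI, was not tested. In SmoM2 0 of 4 tested and in Gnas-eKO 0 of 5 tested were called by edgeR, with Krt83 and Krt87 between -1.78 and -2.28 on the log2 scale in both. At an unadjusted p under 0.05 those were the same 2 genes in each model, both lower, where 19.1% of genes tested in SmoM2 and 7.34% in Gnas-eKO were lower at that p. Among the 49 keratin-associated protein genes in the table, 13 of 20 tested were called lower in SmoM2 and 0 higher. In PKI 11 of 18 were lower and 2 higher, and in Gnas-eKO 0 of 20 were called. Over all genes tested, 13.5% were called lower and 16.2% higher in SmoM2, 15.8% and 18.7% in PKI, and 0.165% and 1.46% in Gnas-eKO.

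Some of the 8 hair shaft genes were called in each model. Over all genes tested, SmoM2 had 16.2% called higher and 13.5% lower. Gnas-eKO had 1.46% higher and 0.165% lower, while PKI had 18.7% higher and 15.8% lower. In SmoM2, 2 of 8 were lower, Selenbp1 (log2 fold change -2.64, SE 0.44, adjusted p = 0.00704) and Tgm3 (-1.004), a transglutaminase that cross-links hair and epidermal proteins. In Gnas-eKO Tgm3 was lower (-1.21). In PKI, Padi3, an enzyme that converts arginine to citrulline in hair proteins, was higher (4.82, SE 0.582, adjusted p = 0.00133), as was Dsg4, a desmosomal cadherin of the hair shaft (2.61), and Selenbp1 was lower (-3.35). Of 10 regulators of hair keratins, 2 were called higher and 4 lower in SmoM2, 0 in Gnas-eKO and 3 higher and 1 lower in PKI. Foxn1, a transcription factor needed for hair shaft formation, was lower in SmoM2 (-1.59, SE 0.175), and Foxq1 was lower in SmoM2 (-1.39) and PKI (-1.33). Lef1, a Wnt effector of the hair matrix, was higher in SmoM2 (1.43) and PKI (3.07), where it rose from 1.77 to 5.36 CPM in Con to 24.7 to 31.0 CPM in BCC, and Dlx3 was lower in SmoM2 (-1.28) and higher in PKI (1.08).

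Markers of the inner root sheath, the layer that encloses the growing hair shaft, rose in PKI beside Krt35. Of 9 tested, 8 were called higher, among them Krt26 (log2 fold change 7.91), Krt27 (4.84) and Krt28 (4.69), and 0 lower. Over all genes tested, 18.7% were called higher in PKI, 16.2% in SmoM2 and 1.46% in Gnas-eKO. Krt27 was at 1.08 to 16.3 CPM in PKI Con and at 164 to 214 CPM in PKI BCC. The 10 markers summed to 144 to 387 CPM in PKI Con and to 2085 to 2605 CPM in PKI BCC. In the other models the sums overlapped between the groups, at 249 to 493 CPM in SmoM2 Con and 235 to 365 CPM in SmoM2 BCC, and at 262 to 516 CPM and 234 to 483 CPM in Gnas-eKO, where 1 of 9 was called in SmoM2 (Gata3, higher) and 0 in Gnas-eKO. The SmoM2 sum mixes both directions. Gata3, which is also made outside the hair follicle, was at 112 to 131 CPM in Con and 167 to 207 CPM in BCC, while the other 8 tested had negative log2 fold changes, of which none passed, such as Krt71 with -1.50 (adjusted p = 0.213). The PKI list had a median log2 fold change of 4.15, against -1.38 for SmoM2 and -0.18 for Gnas-eKO. The part of inner root sheath cells in the Krt35 result was not tested.

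Of 8 suprabasal genes of the interfollicular and interscale epidermis, 5 were called lower in SmoM2 and 0 higher, including Flg2 (-2.47), Krt2 (-1.80) and Krt77 (-1.16), 0 in Gnas-eKO, and 2 lower (Krt2 -2.37 and Lor -2.35) and 1 higher (Krt1 1.80) in PKI. In SmoM2, Flg (-1.46, adjusted p = 0.237), Lor (-1.41, 0.23) and Krt1 (0.47, 0.586) did not pass. Their sum was 36924 to 55235 CPM in SmoM2 Con and 18177 to 31144 CPM in SmoM2 BCC. It did not overlap in Gnas-eKO either, at 33725 to 43776 CPM in Con and 16371 to 28087 CPM in BCC, although the list's median log2 fold change there was 0.36. It overlapped in PKI, at 29138 to 51157 CPM in Con and 13292 to 44985 CPM in BCC. Of 6 basal markers, 4 were called lower and 1 higher in SmoM2, 3 lower in PKI and 0 in Gnas-eKO. Over all genes tested, 13.5% were called lower and 16.2% higher in SmoM2. These shares were 15.8% and 18.7% in PKI, and 0.165% and 1.46% in Gnas-eKO.

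Markers of other cells also moved with BCC. Fibroblast markers summed to 17.2 to 39.8 CPM in SmoM2 Con and 388 to 524 CPM in SmoM2 BCC, to 16.0 to 27.4 and 93.3 to 578 CPM in Gnas-eKO, and to 15.8 to 43.4 and 84.4 to 145 CPM in PKI, with 2, 1 and 3 of 6 called higher. Most of each BCC sum was Dcn, at 440 ± 69.6 CPM in SmoM2 BCC (SD, n = 4), and in SmoM2 Col1a1 (log2 fold change 0.36, adjusted p = 0.575), Col3a1 (-0.07, 0.955), Pdgfra (0.73, 0.274) and Lum (2.18, 0.0778) did not pass. Leukocyte markers summed to 41.4 to 103 CPM in PKI Con and 228 to 438 CPM in PKI BCC, with 5 of 6 called higher there, 1 of 6 lower in SmoM2 and 0 in Gnas-eKO. Melanocyte markers were called lower in 2 of 5 in SmoM2, 4 of 5 in PKI and 0 of 5 in Gnas-eKO, and the 1 endothelial marker tested in 0 of the models. Over all genes tested, the shares called in each model were those given above beside the basal markers. The part of these other cells in the keratin values was not tested.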

How the data were processed

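Estimated counts per gene, deposited by the authors without normalisation, were analysed for 21 libraries; of these values 22.7% lay more than 0.01 from a whole number. The submitters' processing notes name bcl2fastq 2.20, cutadapt 1.18, STAR 2.7.0f and Partek and the build mm10; the labels' protocols give a stranded polyA preparation, and whether the counting used strand is not given in the sources used here. A second deposited table holds the authors' TMM-normalised signal, used for 1 alternative only.

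Counts were rounded and tested in edgeR 4.0.16 (R 4.3.3): filterByExpr by group, TMM, and the robust quasi-likelihood test of BCC against Con within a model, with Benjamini-Hochberg adjustment over all genes tested and calls at an adjusted p under 0.05. Differences between models were interaction contrasts over 14 libraries. The SE is the absolute log2 fold change over the square root of F, and confidence limits are at 95%. Correlations used log2 CPM with a prior count of 2. Coding sequences came from GENCODE M21 and were aligned with Biopython. The tests were run on simulated counts that had the same spread for every gene. The members varied more than most genes, so that check does not cover them. Alternatives were DESeq2 1.42.0, limma 3.58.1 on log2 of the authors' normalised signal plus 1, other size factors, no filter, a non-robust fit, a joint fit, a replicate block and leaving out each library. Floors of 3 counts cover counting error only.

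The members and gene lists were chosen with earlier results of these data known. By a rule, all members and the other hair keratins were named, with up to 3 called genes of the largest change per other list and model. The 5 genes most like the members were also named. The value of Dlx3 in SmoM2 and some genes that did not pass are given beside this rule. Counts of any 2 libraries of a group differed by more than sampling noise (lowest chi-square over its degrees of freedom 8.93), and p-values measure the spread between the libraries of a group.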

Additional observations from a re-analysis of the deposited data

Results flagged for a closer look

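Between models, 4 differences of the BCC effect passed the test of the difference itself, all for 2 genes and all with PKI as one of the models. For Krt35 the log2 fold change in PKI exceeded that in SmoM2 by 5.06 and that in Gnas-eKO by 4.33. For Krt86 it exceeded that in SmoM2 by 4.33 and that in Gnas-eKO by 3.85, the last of which was called in 2 of 14 fits that left out a library. Krt86 shares 48.4% of its 50-base coding stretches with Krt81, so its own level is uncertain, while Krt35 shares 4.03% of its stretches with Krt34 and fewer with any other member. No library stood apart from its group of 4 by Dixon's test on log2 CPM in 27 tests of a member in a BCC group, where chance gives about 1 in 20.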

How the results depend on the processing

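The 9 members called per comparison varied with the test. In SmoM2, where 3 were called, DESeq2 called 5, limma 5, the non-robust fit 7 and the joint fit of all libraries 0, all lower. Over all genes, the main fit called 2214 of 16370 tested lower, DESeq2 2500 of 23570 and limma 2176 of 16370. The non-robust fit called 2252 of 16370 lower and the joint fit 1885 of 17695. In PKI, where 3 were called (1 higher, 2 lower), DESeq2, limma and the non-robust fit called 4 each (2 higher, 2 lower) and the joint fit 2, both higher. Over all genes in PKI, calls numbered 5653 of 16397 in the main fit, 6176 of 23537 by DESeq2 and 5782 of 16397 by limma. The non-robust fit called 5654 of 16397 and the joint fit 5188 of 17695. In PKI minus Gnas-eKO, where 2 were called, 1 was called with no filter on low counts. Over all genes these 2 fits called 1564 of 17254 and 1302 of 23703. Leaving out 1 library gave 2 to 7 calls in SmoM2, 1 to 7 in PKI and 0 to 2 in Gnas-eKO. Over all genes, those fits called 3613 to 4627, 4057 to 5466 and 0 to 1910 genes. Between models it gave 2 to 7 calls in PKI minus SmoM2, 0 to 5 in PKI minus Gnas-eKO and 0 in Gnas-eKO minus SmoM2. Those fits called 3401 to 4429, 673 to 2512 and 14 to 79 genes. Leaving out 1 library moved the log2 fold change of Krt34 in PKI from -0.206 to 3.73. It moved the PKI minus Gnas-eKO difference of Krt36 from -0.525 to 3.6 and that of Krt84 from -0.595 to 4.14. None of these was called in the fit with all libraries. The cause was not tested.

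The same replicate numbers recur in Con and BCC, but the labels do not say that they pair animals. Deviations from the group means of same-numbered libraries correlated at -0.127 to -0.0867 in SmoM2, 0.0411 to 0.184 in Gnas-eKO and -0.0662 to 0.283 in PKI, so the numbers were not taken to pair the libraries. With a replicate block, the 3 SmoM2 calls did not pass (adjusted p = 0.0547 for Krt34, 0.0696 for Krt36 and 0.079 for Krt84), and the 1 member called there was Krt35 (0.0177), which was not called without the block. In PKI 0 were called (0.0983 for Krt35, 0.0956 for Krt36 and 0.105 for Krt84) and in Gnas-eKO 0. Of the differences between models, 1 was called in PKI minus SmoM2 and 0 in PKI minus Gnas-eKO, and the PKI minus Gnas-eKO differences of Krt36 and Krt84 turned to 3.18 and 3.67. Over all genes, the fits with the block called 3428 of 16370 in SmoM2, 5988 of 16397 in PKI and 135 of 16409 in Gnas-eKO. For the differences they called 3958 of 17261 in PKI minus SmoM2 and 925 of 17254 in PKI minus Gnas-eKO. Fits with the block had 6 libraries a model with a partner and fewer residual degrees of freedom.

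At 1.13 estimated counts, Krt34 in the third PKI Con library was under the floor of 3 counts. In these fits of 3 against 4 libraries, changes of the less abundant members near 2 on the log2 scale often missed the threshold. The members' median SE was also above that of all genes in each model. The reason for the missed calls was not tested. DESeq2's size factors changed no count of called members. Over all genes, calls in Gnas-eKO numbered 267, against 1540 by DESeq2, 2644 in the joint fit, 135 with a replicate block and 0 to 1910 without 1 library. In PKI minus Gnas-eKO they numbered 1564, against 925 with the block and 673 to 2512 without 1 library. In Gnas-eKO minus SmoM2 they numbered 30, against 66 in the joint fit and 14 to 79 without 1 library.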
